A study of Mus musculus with 2 samples.

Results

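Kcnc2, Glis3, Tmem132c, Ccdc141 and Rspo2 are 5 of the 32285 genes counted in single cells of the postnatal mouse testis, and each was highest, among germ cells, in the undifferentiated spermatogonia. They were chosen by their measured values in these cells, namely their high level in cells with UMIs (unique molecular identifiers, each standing for 1 captured transcript) of Gfra1 and Ret against cells with UMIs of Kit and Stra8, and their detection together with Gfra1. That contrast is therefore a description of the choice and carries no test. Earlier results of these cells were known when they were chosen, so the other values below are descriptions too.

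The samples were 1 control testis library and 1 Brca1 vKO library, both from mice of postnatal day 7. Brca1 vKO mice were Brca1 f/- and carried Vasa-Cre, which acts in germ cells from the late fetal gonocyte stage on, so that their germ cells lost Brca1 while their somatic cells still held 1 floxed copy beside 1 deleted allele. The control was a littermate, whose exact genotype is not given in the sources used here. With 1 mouse per genotype no difference could be tested, and every interval below is an exact 95% interval that covers counting error only. Mouse, genotype, library and cell loading cannot be told apart.

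The control library held 5812 barcodes and 120568700 UMIs, and the Brca1 vKO library held 9456 barcodes and 165062097 UMIs. With at least 750 genes and at most 10% mitochondrial UMIs, 5077 and 8712 cells were kept. The libraries shared 16 kept barcodes, none of them from germ cells. Germ cells had at least 3 Ddx4 and Dazl UMIs per 10000 UMIs. Those with at least 10000 UMIs were called undifferentiated when they held at least 3 Gfra1 and Ret UMIs and at least 2 times as many as of Kit and Stra8, differentiating in the converse case, and intermediate otherwise. Germ cells under 10000 UMIs (372 and 52) were kept apart as the low-UMI germ class. This gave 330 undifferentiated, 140 intermediate and 246 differentiating cells in control, and 188, 31 and 9 in Brca1 vKO. Median depth in the undifferentiated cells was 45716 UMIs in control and 37314 in Brca1 vKO. Of these cells, 62 in control and 17 in Brca1 vKO lay within 1.5 times of a cut. UMIs of Sertoli markers passed the cut of the Sertoli-like class in 27 of the 330 and 8 of the 188 undifferentiated cells. With all cells past any somatic cut removed, Kcnc2 was 30.6 times and Ccdc141 6.04 times as high in undifferentiated as in differentiating control cells, against 32.1 and 6.11 with them.

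Undifferentiated spermatogonia are the pool from which the adult male germ line is maintained. Their stem cells carry GFRA1 and RET, the co-receptor and receptor for GDNF, a growth factor made by Sertoli cells. Retinoic acid moves their progeny to differentiating spermatogonia, which switch on KIT and STRA8. Of the genes described here, Kcnc2 encodes Kv3.2, a voltage-gated potassium channel subunit best known from fast-spiking neurons. Glis3 encodes a Krüppel-like zinc finger transcription factor known from pancreatic beta cells and the thyroid, and mice without it form few spermatogonia. Rspo2 encodes R-spondin 2, a secreted protein that strengthens WNT signalling through LGR receptors and the ubiquitin ligases ZNRF3 and RNF43. Ccdc141 encodes a coiled-coil protein that binds DISC1 at the centrosome of migrating neurons. Tmem132c encodes a single-pass membrane protein with immunoglobulin-like domains.

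The genes lie on separate chromosomes. In the GENCODE annotation of build GRCm38 (mm10), Kcnc2 spans chr10:112271121-112467024 on the plus strand and Glis3 chr19:28258851-28680077 on the minus strand. Tmem132c spans chr5:127241808-127565793 on the plus strand, Ccdc141 chr2:77009902-77170636 and Rspo2 chr15:43020794-43170826, both on the minus strand. All are long genes, from 150 kb for Rspo2 to 421 kb for Glis3, with 5 to 23 exons in the longest transcript. Protein-coding genes on either side of them were read in the same cells. Sestd1, 9.70 kb from Ccdc141, was at 86.8 UMIs per 1000000 UMIs (CPM) in undifferentiated and 66.9 in differentiating control cells, and Slc15a4, 29.9 kb from Tmem132c, was at 14.7 and 14.4. Eif3e, 79.2 kb from Rspo2, was at 166 and 206. Slc1a1, 155 kb from Glis3, was at 5.34 and 4.83, and Rfx3, 248 kb from it on the other side, at 121 and 81.5. Ttn, 27.4 kb from Ccdc141, was at 35.2 and 16.9. Caps2, 54.6 kb from Kcnc2, was at 0.745 and 0, too few UMIs to compare.

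Tmem132c and Ccdc141 are shown by the 250 bases before their start because these were the genes that differed most between the libraries, in opposite directions. The sequences are from RefSeq, build GRCm38.p6, written 5′ to 3′ on the strand of the gene, with GGGCGG (a GC box) and CAGCTG (an E-box, the kind of site read by basic helix-loop-helix factors) in capitals, on either strand.
Tmem132c, chr5:127241576-127241825, plus strand: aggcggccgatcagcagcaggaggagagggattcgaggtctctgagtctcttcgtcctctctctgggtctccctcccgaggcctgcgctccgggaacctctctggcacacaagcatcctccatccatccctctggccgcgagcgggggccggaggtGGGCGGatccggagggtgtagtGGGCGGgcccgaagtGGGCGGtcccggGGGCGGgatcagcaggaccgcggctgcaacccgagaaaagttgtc
Ccdc141, chr2:77170636-77170885, minus strand: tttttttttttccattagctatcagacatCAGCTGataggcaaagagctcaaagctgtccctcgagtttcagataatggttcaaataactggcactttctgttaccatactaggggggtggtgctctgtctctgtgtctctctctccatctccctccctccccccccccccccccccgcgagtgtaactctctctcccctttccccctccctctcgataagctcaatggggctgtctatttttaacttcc
The Tmem132c promoter held 4 GC boxes, 21 CpG dinucleotides and 68.0% G and C. The Ccdc141 promoter held no GC box, 1 E-box and 4 CpG dinucleotides, with 50.4% G and C. Among 32851 promoters of the same length, 32.7% held a GC box and 13.0% held this E-box, and the median content of G and C was 52.4%. The Glis3 promoter, with 75.6% G and C, held 3 GC boxes and 1 E-box. Kcnc2 has 4 listed starts with 52.4% to 58.8% G and C and 1 E-box before each. The stretches before starts 2, 3 and 4 overlap and hold the same E-box. Start 1 has 1 GC box before it and the others none. TATAAA was in none of these promoters and in 12.4% of all promoters, and CACGTG was in none of them and in 6.02% of all promoters. CCAAT lay before 3 of the 4 Kcnc2 starts, with the same site before starts 2 and 3. It lay before no listed start of the other genes, and 33.8% of all promoters held it. A match is a description of the letters only. For Rspo2 only the position of the gene is given.

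Kcnc2 showed the steepest difference across the germ cells. Its summed level in control was 778 CPM (95% interval 765 to 792) in undifferentiated, 192 in intermediate and 24.2 in differentiating cells, a ratio of 32.1 (28.7 to 36.1) from end to end. In Brca1 vKO the levels were 912, 483 and 88.5, a ratio of 10.3 (7.21 to 15.3) that rests on 30 UMIs in 9 differentiating cells. Per cell, the control undifferentiated cells ran from 0 to 39.0 UMIs per 10000 UMIs with a median of 6.52, and the Brca1 vKO cells from 0 to 28.6 with a median of 8.14. The control differentiating cells had a median of 0 and a highest value of 4.73, so that the cell groups overlapped in the lower part of the range. The control ratio moved with the definition of the groups: it was 59.7 with at least 6 UMIs of one pair and 4 times the other, 112 with none of the other pair, and 52.8 with a mitochondrial limit of 5%, which left 102 of the 330 cells.

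Glis3 declined more gradually over the germ cells. In control it was at 1006 CPM (990 to 1022) in undifferentiated, 568 in intermediate and 122 in differentiating cells, a ratio of 8.24 (7.82 to 8.69). In Brca1 vKO it was at 958, 597 and 224, a ratio of 4.27 (3.41 to 5.43). Single control undifferentiated cells ran from 0 to 49.3 UMIs per 10000 UMIs with a median of 8.95. The differentiating cells reached 19.3 with a median of 0.311, so Glis3 was still present in many of them. Its control ratio was 13.9 with none of the other pair and 13.3 with a mitochondrial limit of 5%.

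Rspo2, the only secreted ligand of the 5, was at 130 CPM (124 to 136) in control undifferentiated, 45.6 in intermediate and 9.97 in differentiating cells. The ratio was 13.0 (10.9 to 15.7). In Brca1 vKO it was at 91.4, 44.4 and 23.6, and its ratio of 3.87 (1.95 to 9.0) stood on 8 UMIs in the differentiating cells. The median undifferentiated cell held 1.09 UMIs of Rspo2 per 10000 UMIs in control and 0.668 in Brca1 vKO, with highest values of 4.75 and 4.40.

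Tmem132c stood at 130 CPM (124 to 135) in control undifferentiated cells, 42.1 in intermediate and 12.2 in differentiating cells, a ratio of 10.6 (9.03 to 12.6). In Brca1 vKO it stood at 310, 158 and 20.7, a ratio of 15 (7.27 to 37.4) with 7 UMIs in the lower group. With 10 CPM added to both levels, the control ratios of Tmem132c and Rspo2 were 6.29 and 7.01.

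Ccdc141 had the smallest control ratio of the 5, with 196 CPM (189 to 203) in undifferentiated, 131 in intermediate and 32.0 in differentiating cells. The ratio was 6.11 (5.51 to 6.79), and in Brca1 vKO it was 4.98 (2.52 to 11.6) between 118 and 23.6. The step from undifferentiated to intermediate control cells was 1.5 for Ccdc141 and 1.77 for Glis3, against 4.05 for Kcnc2, 3.08 for Tmem132c and 2.85 for Rspo2.

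**Figure D1:**
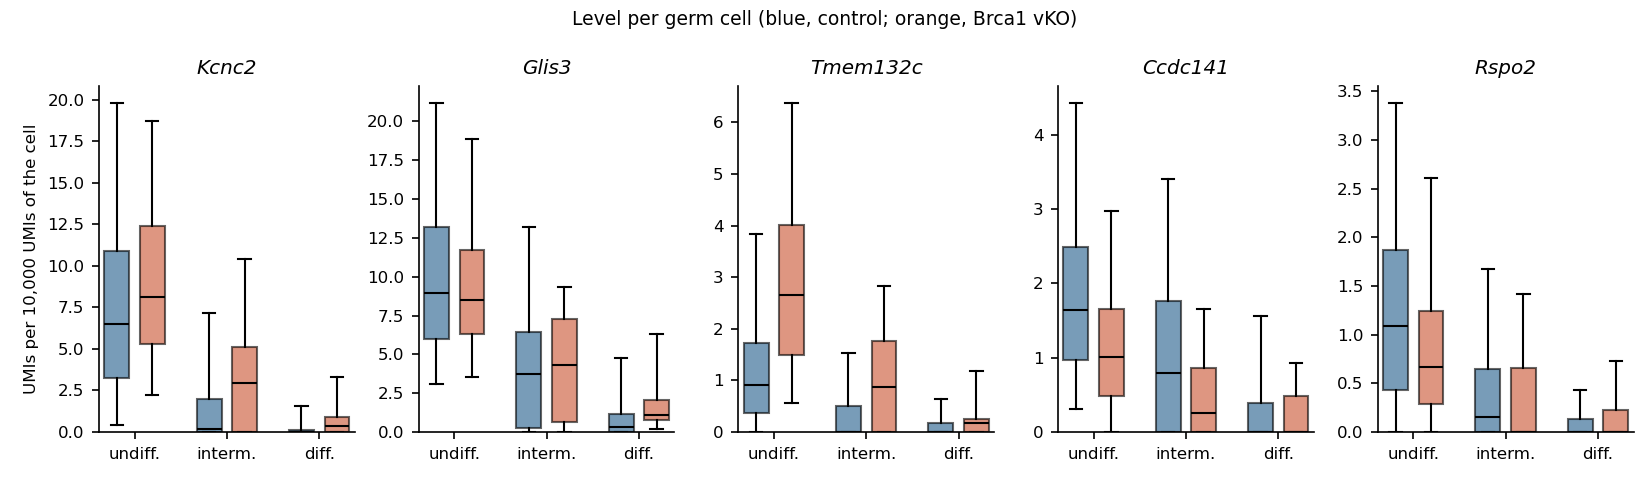
UMIs per 10000 UMIs of the cell (linear axis, one scale per gene) in undifferentiated, intermediate and differentiating germ cells of control (blue) and Brca1 vKO (orange). Lines are medians, boxes the middle 50% of cells and whiskers the 5th to 95th percentile; the Tmem132c median of undifferentiated cells is higher in Brca1 vKO (2.66) than in control (0.919), while the Ccdc141 median is lower (1.01 against 1.64).

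All 5 genes were at least 4-fold higher in undifferentiated than in differentiating control cells, as were 1.92% of the 14039 genes with at least 50 UMIs in these cells. By size of the ratio Kcnc2 was number 12 of these genes, Rspo2 29, Tmem132c 49, Glis3 68 and Ccdc141 114. In Brca1 vKO, 4 of the 5 passed 4-fold and Rspo2 did not, with 4.98% of 10581 genes past it. Genes with no UMI in the differentiating cells were counted as past 4-fold in these shares. Because the genes were chosen on this contrast, these places describe the choice. For scale, Gfra1 itself had a control ratio of 31.7 and Ret of 17.2. Of 18 other stem and progenitor genes with enough UMIs, 9 passed 4-fold, among them Id4 (12.7), a marker of stem cells, and Etv5 (6.39), a transcription factor induced by GDNF.

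Relatives of these genes did not all share the pattern. Tmem132e was the only one of 4 other TMEM132 genes past 4-fold, at 18.7 against 1.98 CPM, a ratio of 9.48 (6.30 to 14.9). Of the 4 GLIS and GLI genes that could be compared, none was past 4-fold higher and Gli2 was past 4-fold lower (0.154). Glis1 was at 54.3 and 86.3 and Gli3 at 92.1 and 102 CPM in undifferentiated and differentiating cells. None of the 4 CCDC141 partner and centrosome genes with enough UMIs passed 4-fold in either direction. Disc1, with 27 and 16 UMIs in undifferentiated and differentiating control cells, had too few to be compared.

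Counting every kept cell, Rspo2 and Glis3 came almost wholly from germ cells. Germ cells held 98.9% of the Rspo2 UMIs of the control library and 96.3% of those of the Brca1 vKO library. For Glis3 these shares were 98.3% and 95.1%, and for Tmem132c 94.2% and 91.4%. Undifferentiated cells, which were 6.50% of the kept control cells and 2.16% of the Brca1 vKO cells, held 84.0% and 89.4% of the Rspo2 UMIs. Kcnc2 and Ccdc141 were not restricted to germ cells. Germ cells held 78.1% of the Kcnc2 UMIs in control and 49.1% in Brca1 vKO, and 60.8% and 16.6% of the Ccdc141 UMIs. The Brca1 vKO library had fewer germ cells and more somatic cells, which bears on these library-wide shares.

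The second site of Kcnc2 was the stromal-like class, cells led by the markers Dlk1, Col3a1, Pdgfra, Tcf21 and Dcn. There it stood at 250 CPM (242 to 258) in control and 273 (266 to 279) in Brca1 vKO. With every cell thinned to 10000 UMIs, 68.3% of 738 control and 73.9% of 1420 Brca1 vKO stromal-like cells held a Kcnc2 UMI. In Sertoli-like cells, the class taken as background, this share was 1.70% and 1.81%, at median depths of 17542 and 14853 UMIs before thinning. In the order of control levels, stromal-like cells lay between undifferentiated and intermediate germ cells (192), and Leydig-like cells (26.4, interval 17.1 to 39.0) could not be told from differentiating germ cells (24.2). Myoid-like cells were at 6.92 and Sertoli-like cells at 2.08.

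Ccdc141 was spread over several supporting cell types. Pericyte-like (166, interval 121 to 223), Leydig-like (125, 103 to 149) and myoid-like control cells (118, 110 to 127) were each at or near the level of control intermediate germ cells (131, 121 to 141), and stromal-like cells were at 73.4. The interval of the pericyte-like class, 26 cells, reached that of the undifferentiated germ cells. In Brca1 vKO the undifferentiated cells, at 118 (110 to 125), did not stand above myoid-like (114, 108 to 120) or pericyte-like cells (142, 97.4 to 201). Stromal-like and Leydig-like cells were lower there, at 75.7 and 70.9. At 10000 UMIs per cell, 61.7% of myoid-like and 46.6% of stromal-like control cells held a Ccdc141 UMI, against 4.19% of Sertoli-like cells and 77.9% of undifferentiated cells. In Brca1 vKO the shares were 60.6%, 48.1%, 5.10% and 57.4%. Of the myoid-like cells, 136 of 451 in control and 364 of 1053 in Brca1 vKO lay within 1.5 times of the cut of the class.

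Glis3, Tmem132c and Rspo2 were lower in every somatic class with at least 20 cells than in control differentiating germ cells. Glis3 was highest in macrophage-like cells, at 57.7 CPM from 37 UMIs in 32 control cells and 40.1 from 34 UMIs in 55 Brca1 vKO cells. In control, 26 of the 37 UMIs lay in 2 cells. Tmem132c reached 5.43 in control stromal-like cells, from 75 UMIs, and 5.03 in myoid-like cells. These 75 UMIs were above the 3.24 that free germ cell RNA would give if it followed the 52 Dazl UMIs found in the same cells. Somatic classes were limited to cells with few Ddx4 and Dazl UMIs, which keeps such expected numbers low. In Sertoli-like cells, the class taken as background, control Tmem132c was also above, with 29 UMIs (19.4 to 41.6) against 18.0. In Brca1 vKO Sertoli-like cells its 54 UMIs had an interval of 40.6 to 70.5 that held the expected 58.7. Rspo2 gave 7 UMIs in the control stromal-like cells, with an interval of 2.81 to 14.4 that holds the 3.24 expected from free RNA. In Sertoli-like cells it gave 13 and 17 UMIs, whose intervals held the 18.0 and 17.4 expected in the same way. As the class limit keeps the expected numbers low, whether free RNA gave the UMIs of either gene was not tested.

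**Figure D2:**
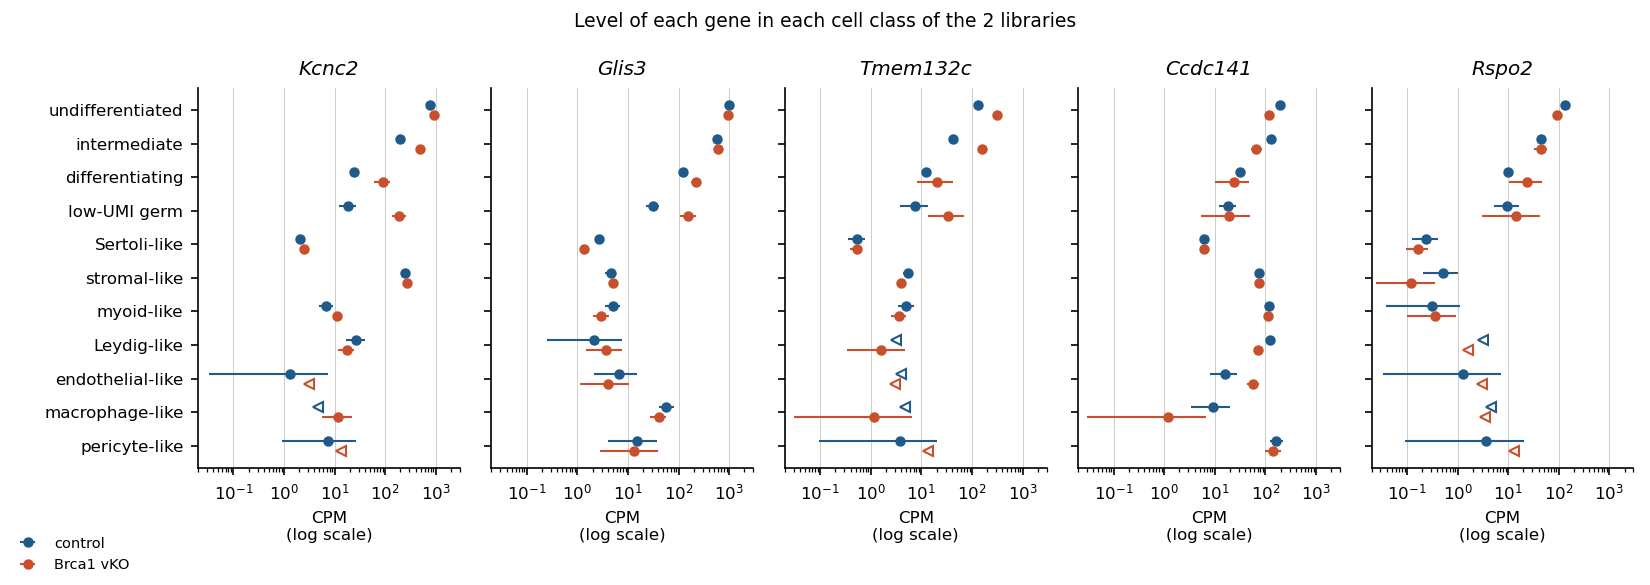
Summed level in CPM (UMIs per 1000000 UMIs of the class, log axis) of each gene in each class, with exact 95% intervals for counting error, in control (blue) and Brca1 vKO (orange). Open arrowheads mark classes with no UMI, placed at the level of 3 UMIs; Kcnc2 has a second high class in stromal-like cells (250 and 273), Ccdc141 in myoid-like (118 and 114), Leydig-like and pericyte-like cells, and Rspo2 gave at most 17 UMIs in any somatic class shown.

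Most undifferentiated cells held several of the genes at once. After thinning to 10000 UMIs, 90.3% of 330 control undifferentiated cells held Kcnc2 (86.6% to 93.3%), 99.1% Glis3, 59.4% Tmem132c, 77.9% Ccdc141 and 58.2% Rspo2. Without thinning these shares were 97.3%, 99.7%, 87.3%, 96.4% and 91.2%. In Brca1 vKO the thinned shares were 98.4% for Kcnc2, 98.4% for Glis3, 91.5% for Tmem132c (86.5% to 95.1%), 57.4% for Ccdc141 and 94 of the 188 cells for Rspo2. All 5 genes were found together in 98 of the 330 control cells (29.7%) and 57 of the 188 Brca1 vKO cells (30.3%). No undifferentiated cell of either library lacked all 5 at this depth.

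Kcnc2 followed Gfra1 from cell to cell most closely. In control, 249 undifferentiated cells held both, against 233 if detection were independent, and the rank correlation of their thinned counts was 0.61 over 330 cells. In Brca1 vKO it was 0.34 over 188 cells. These cells share the library and were selected on Gfra1 and Ret, so the correlations are descriptions. For Rspo2 with Gfra1 the correlation was 0.25 in control and -0.01 in Brca1 vKO, for Glis3 0.31 and 0.27, and for Tmem132c 0.20 and 0.18. For Ccdc141 it was near 0 (-0.03 and 0.08). Among the genes themselves, Kcnc2 and Glis3 went together most in both libraries (0.43 and 0.51), while Tmem132c and Ccdc141 did not (0.06 and -0.03). In control, Kcnc2 and Glis3 averaged 7.85 and 10.13 thinned UMIs per cell, against 1.29 for Tmem132c and 1.95 for Ccdc141. Low counts can lower a rank correlation, and this was not separated here.

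Germ cells were also ordered by their Gfra1 and Ret UMIs alone, without Kit or Stra8, after thinning to 10000 UMIs. The genes were chosen for their level in cells with these UMIs, so a rise along this order describes the choice. In the 336 control germ cells with no Gfra1 or Ret UMI, Kcnc2 averaged 0.34 UMIs per cell, and in the 80 cells with 7 or more it averaged 13.03. Glis3 went from 2.20 to 13.50 and Tmem132c from 0.15 to 1.91 between the same cells. Ccdc141 was already at 1.65 in cells with 1 or 2 Gfra1 and Ret UMIs and at 1.81 in the cells with 7 or more. Rspo2 was at 0.74 and 1.5 in these cells.

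**Figure D3:**
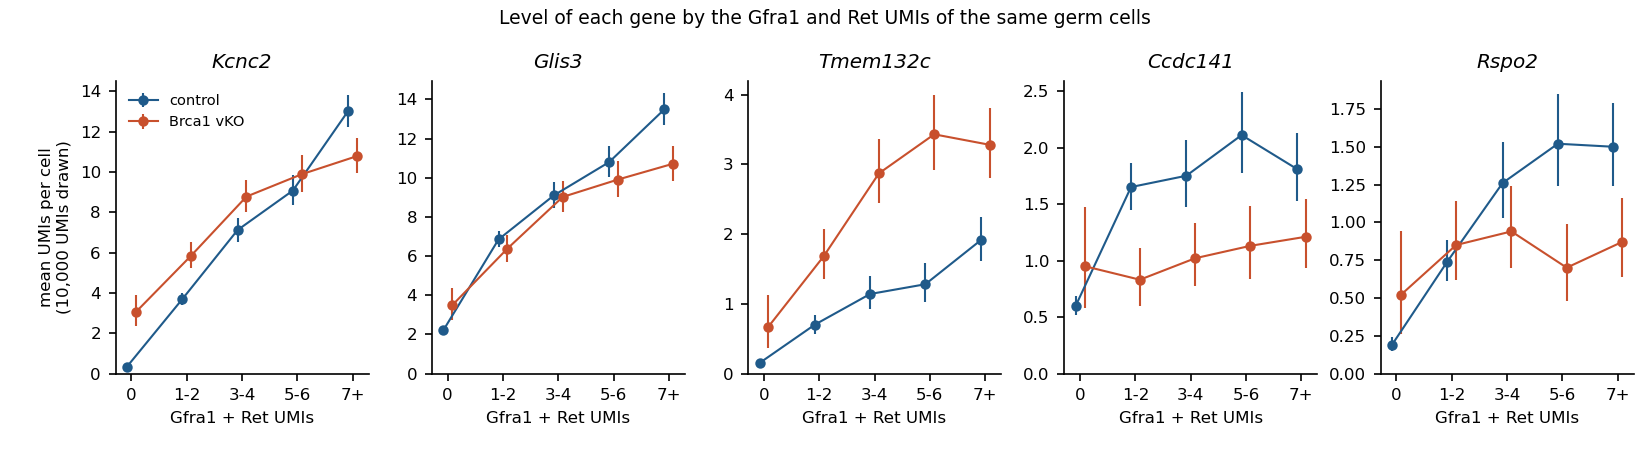
Mean UMIs of each gene per germ cell thinned to 10000 UMIs, against the Gfra1 and Ret UMIs of the same thinned cell, in control (blue) and Brca1 vKO (orange), with exact 95% Poisson intervals. Tmem132c is higher in Brca1 vKO in each of the 5 bins and Ccdc141 is lower in each bin with at least 1 Gfra1 or Ret UMI, while the Kcnc2 lines cross between the lowest bin (0.34 against 3.05) and the highest (13.03 against 10.79).

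Within the control undifferentiated cells, the 5 genes differed in which other stem or progenitor genes they went with. Kcnc2 averaged 12.11 thinned UMIs in the 62 cells with an Lhx1 UMI and 6.86 in those without, Lhx1 being a homeobox gene of stem cells downstream of GDNF. Tmem132c averaged 2.16 and 1.09 in the same cells, and Ccdc141 went the other way with 1.44 and 2.07. The 72 cells with a UMI of Sox3, a marker of progenitors, had 4.26 Kcnc2 UMIs against 8.85 in cells without, 0.83 against 1.42 for Tmem132c and 0.85 against 1.38 for Rspo2. Glis3 (8.96 against 10.46) and Ccdc141 (2.14 against 1.90) differed less between the cells with and without Sox3. Sohlh1, a helix-loop-helix factor of spermatogonia that go on to differentiate, gave the same picture for Kcnc2, at 6.28 in the 194 cells with a UMI and 10.09 in the others, and for Tmem132c, at 1.02 and 1.69. Other progenitor genes did not all do so. With Egr4, Upp1 and Rarg the Kcnc2 ratios of cells with over without were 0.646, 0.548 and 0.583, but with Nanos3 and Pou5f1 they were 1.02 and 0.861. For Tmem132c they were 0.731, 0.585 and 0.758, and 0.972 and 1.06. Ccdc141 averaged 3.52 in the 27 cells with Rarg and 1.81 in the others. Cells with a UMI of Zbtb16, which encodes PLZF, numbered 304 and held 2.04 Ccdc141 UMIs against 0.85 in the other cells. Glis3 was at 10.45 and 6.35 in the same cells, while Kcnc2 and Tmem132c were at 7.92 and 7.0 and at 1.30 and 1.27.

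**Figure D4:**
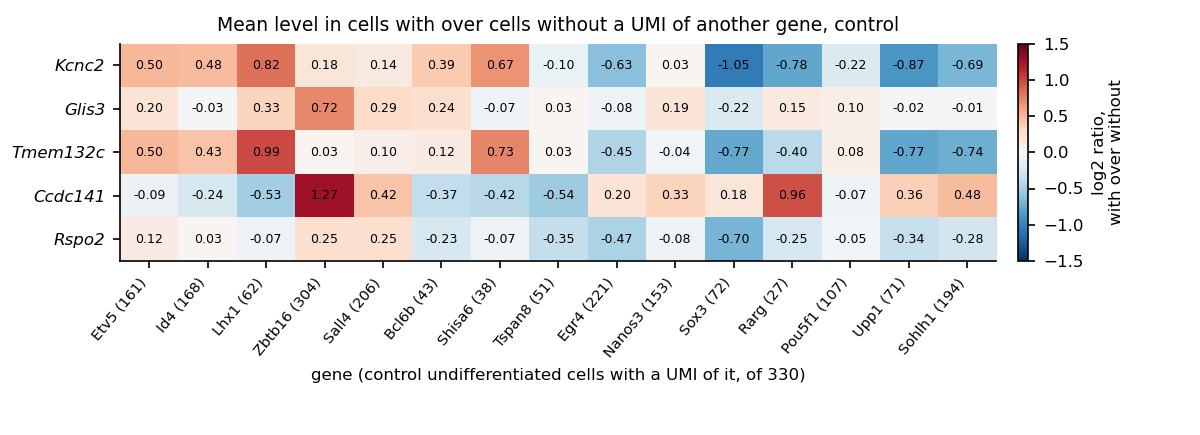
Log2 ratio of the mean thinned level of each gene in control undifferentiated cells with a UMI of another gene over those without, for the 15 stem and progenitor genes found in at least 20 of the 330 cells. Kcnc2 and Tmem132c are red (higher) with Lhx1 (0.82 and 0.99) and blue (lower) with Sox3 (-1.05 and -0.77), and Ccdc141 is reddest with Zbtb16 (1.27).

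In Brca1 vKO most of these splits were smaller. With Lhx1, found there in 128 of 188 cells, the ratio was 1.21 for Kcnc2, 1.31 for Tmem132c and 0.791 for Ccdc141, against 1.77, 1.98 and 0.694 in control. With Sohlh1, found in 54 cells, Tmem132c still stood at 1.94 against 3.36 UMIs, a ratio of 0.579 beside 0.60 in control, while Kcnc2 was at 9.81 and 9.29. No difference between the libraries in these ratios was tested. Sox3 and Upp1 were left out there because too few cells held them.

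Levels were also compared between mitotic and other cells of a class. Of the thinned undifferentiated cells, 296 in control and 156 in Brca1 vKO held 5 or more UMIs of 15 mitotic genes, so that only 11 and 9 cells with 0 or 1 were left for comparison. In control the intervals of all 5 ratios of cells with 5 or more over cells with 0 or 1 held 1. In Brca1 vKO the intervals of Kcnc2 (0.699, interval 0.577 to 0.854) and Glis3 (0.776, 0.635 to 0.956) did not. In stromal-like cells, where many cells of both kinds were found, Kcnc2 was lower in mitotic cells, with a ratio of 0.560 (0.471 to 0.663) in control and 0.671 (0.596 to 0.754) in Brca1 vKO. Tmem132c went the other way, at 3.32 (1.41 to 7.53) and 2.74 (1.41 to 5.12), from 11 and 16 UMIs in mitotic cells. Ccdc141 showed no such difference in stromal-like cells (0.954, 0.728 to 1.23, and 1.04, 0.853 to 1.25).

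Between the genotypes, the 5 genes did not move as a group in the undifferentiated cells. Tmem132c was 2.39 times as high in Brca1 vKO as in control (2.25 to 2.54) and Ccdc141 0.601 times as high (0.557 to 0.647). Rspo2 was at 0.703 (0.645 to 0.766), Kcnc2 at 1.17 (1.14 to 1.21) and Glis3 at 0.952 (0.927 to 0.979). Over 13436 genes the median ratio was 0.993, 8.95% were at least 1.5-fold higher and 10.6% at least 1.5-fold lower. Tmem132c, past 1.5-fold higher, lay at the 98.1st percentile of all ratios, and Ccdc141, past 1.5-fold lower, at the 7.66th. Rspo2 lay at the 12.9th, Kcnc2 at the 75.8th and Glis3 at the 42.8th. Thus 1 of 5 was past 1.5-fold in each direction. Median ratio scaling and TMM shifted all genes by 0.016 and -0.011 on the log2 scale and turned no direction. Brca1 itself was at 70.8 and 42.5 CPM, a ratio of 0.60. The counts are not split by exon, so these UMIs do not check the deletion of part of the gene.

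The Tmem132c difference was seen across the cells. The middle 50% of control undifferentiated cells ran from 0.374 to 1.73 UMIs per 10000 UMIs, and that of Brca1 vKO cells from 1.5 to 4.01. It was present in each bin of Gfra1 and Ret UMIs, with ratios from 1.72 (1.37 to 2.15) in the highest bin to 4.39 (2.25 to 8.06) in the lowest. The bins pool undifferentiated, intermediate and differentiating cells, and control held 246 differentiating cells against 9 in Brca1 vKO. In the lowest bin, of 336 and 21 cells, stage and genotype therefore cannot be told apart. In intermediate cells the ratio was 3.74 (3.03 to 4.62), in differentiating cells 1.70 (0.671 to 3.58). The intermediate cells of the libraries were not alike. Both pairs were under 3 UMIs in 108 of 140 control and 16 of 31 Brca1 vKO intermediate cells, and Gfra1 was at 77.7 and 191 CPM in them. In Sertoli-like (0.981, 0.614 to 1.60), stromal-like (0.744, 0.546 to 1.02) and myoid-like cells (0.711, 0.434 to 1.17) the counting intervals held 1. Their upper limits lay below the interval of the undifferentiated cells (2.25 to 2.54). The difference between classes was not tested. Tmem132cos, an antisense gene within the span of Tmem132c that was looked up for its position, gave 155 UMIs in control and 238 in Brca1 vKO undifferentiated cells, a ratio of 3.2 (2.60 to 3.95). The counting is not stated to use strand, so reads of the pair may not be fully separated. Its level in Brca1 vKO, 30.8 CPM, was far below that of Tmem132c.

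Ccdc141 was lower in the germ cells with Gfra1 or Ret UMIs. The ratio lay between 0.505 (0.358 to 0.697) and 0.666 (0.488 to 0.90) in the 4 bins with at least 1 Gfra1 or Ret UMI, and at 1.58 (0.947 to 2.51) in the cells with none. It was 0.511 (0.390 to 0.658) in intermediate cells. As for Tmem132c, stage and genotype cannot be told apart in the cells with none or in the intermediate cells. In the somatic classes with most Ccdc141 UMIs the ratio was near 1, at 1.03 (0.955 to 1.11) in stromal-like and 0.966 (0.881 to 1.06) in myoid-like cells. Other somatic classes differed more. Leydig-like cells, 40 and 85 in number, were at 0.569 (0.440 to 0.736), and endothelial-like cells at 3.66 (1.94 to 7.50). The difference between these ratios was not tested. Kcnc2 in stromal-like cells was at 1.09 (1.05 to 1.14), near its 1.17 in undifferentiated cells.

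The ratios of Kcnc2, Rspo2 and Glis3 depended on which germ cells were compared. For Kcnc2 the ratio was 8.90 (6.45 to 12.2) in germ cells with no Gfra1 or Ret UMI, of which Brca1 vKO had 21, then 1.58, 1.23 and 1.09, and 0.829 (0.747 to 0.918) in cells with 7 or more. For Rspo2 it was 2.75 (1.31 to 5.26) in the lowest bin, 1.15 in cells with 1 or 2 UMIs, and 0.461 (0.301 to 0.690) and 0.579 (0.403 to 0.819) in the highest bins. Glis3 was at 1.58 (1.23 to 2.01) in the lowest bin and between 0.794 and 0.991 in the 4 bins with at least 1 Gfra1 or Ret UMI. As for Tmem132c, stage and genotype cannot be told apart in the lowest bin, which pools all germ groups.

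The stem and progenitor genes in the same cells moved in both directions, 7 of 19 past 1.5-fold higher and 8 past 1.5-fold lower, with a median ratio of 1.11. Over all genes these were 8.95% and 10.6%, with a median of 0.993. The higher genes were led by Pax7 (8.29, 6.54 to 10.6) and Lhx1 (4.57, 4.12 to 5.09), which mark stem cells. T (3.72, 2.18 to 6.49), Bcl6b (3.0), Shisa6 (2.86), Eomes (2.72) and Id4 (1.62) were higher too. The lower genes included the progenitor markers Sox3 (0.290, 0.219 to 0.377), Upp1 (0.130) and Rarg (0.438), with Sohlh1 (0.393), Pou5f1 (0.398) and Zbtb16 (0.582, 0.550 to 0.615). Nanos3, from 61.3 to 34.7 CPM, and Tspan8, from 20.5 to 13.2 CPM, were lower as well, while the progenitor gene Egr4 went from 165 to 183 CPM. Tspan8 was 10.8 times as high in undifferentiated as in differentiating control cells. Etv5 (1.20), Nanos2 (1.30, 0.913 to 1.85) and Sall4 (1.08) were not past 1.5-fold. Gfra1 was at 1.17 (1.11 to 1.22) and Ret at 1.01. Kit was at 3.85 (3.08 to 4.83), from 7.70 to 29.6 CPM, while Stra8 went the other way, from 29.4 to 22.1 CPM. Of 3 other genes of differentiating spermatogonia (Cited1, Dnmt3b and Dmrtb1), none was past 1.5-fold higher and 1 was past it lower. Their median ratio was 0.761. Whether the make-up of the undifferentiated cells accounts for the 5 ratios was not tested.

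**Figure D5:**
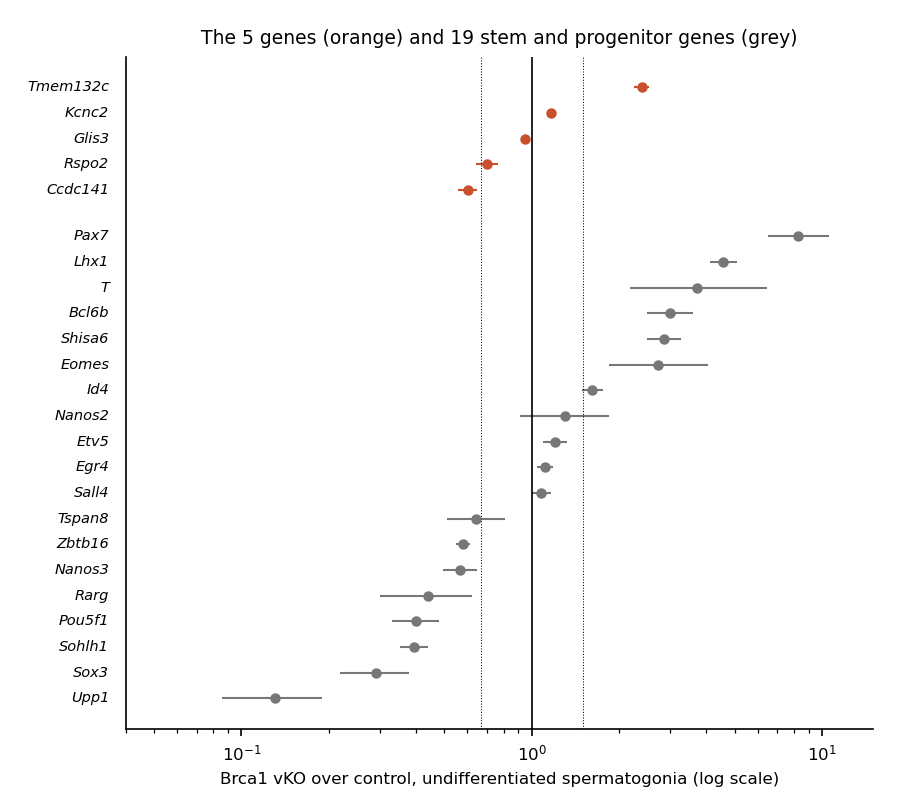
Ratio of summed CPM, Brca1 vKO over control, in undifferentiated spermatogonia (log axis), for the 5 genes (orange) and 19 stem and progenitor genes (grey), with exact 95% intervals for counting error. Dotted lines stand at 1.5-fold in each direction; Tmem132c (2.39) and Ccdc141 (0.601) lie outside them on opposite sides and the other 3 genes lie between them.

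For Rspo2, the genes of its pathway were examined beside it. In control undifferentiated cells its receptor genes Lgr4, Lgr5 and Lgr6 stood at 26.0, 1.24 and 0.993 CPM, and Znrf3, whose product R-spondins clear from the membrane, at 169. Of 15 genes of the list that could be compared between undifferentiated and differentiating control cells, none was past 4-fold in either direction. In Brca1 vKO, with 9 differentiating cells, 2 of 11 were past 4-fold higher, beside 4.98% of all genes. One of them was Wnt6, at 7.06 (1.25 to 281) from 161 UMIs and 1 UMI. The other was Lgr5, with 56 UMIs and 0 UMIs, a ratio of at least 0.819 at the floor of 3 UMIs. It was counted as past 4-fold only because its differentiating sum was 0, and such genes are counted in the 4.98% too. Lgr5 and Lgr6 had too few UMIs to be compared in control. Between genotypes 3 of 13 were past 1.5-fold higher and 2 lower, beside 8.95% and 10.6% of all genes. Rspo4 was lower, at 18.4 and 7.38 (ratio 0.402, 0.297 to 0.535), as was Axin2, a WNT target (9.13 and 5.44, ratio 0.596, 0.412 to 0.845). Lgr5 was higher, from 1.24 to 7.25 (5.84, 3.45 to 10.3), as was Lrp5 (1.90). Wnt5a was at 1.55, with a counting interval (0.973 to 2.46) that held 1.

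By likeness over the 22 sums of class and library with at least 20 cells, on log2 values with 10 CPM added, each gene had its own nearest genes among 10576. Those of Rspo2 were led by Ret (Pearson r 0.983) and those of Tmem132c by Usp44 (0.975), Gfra1 (0.972) and Tmem132e (0.97). For Glis3 they were the long non-coding RNA genes Gm34585 (0.954), Gm33981 (0.953) and 1700112H15Rik (0.951), of which Gm33981 and Gm34585 were also next after Ret for Rspo2. For Kcnc2, with its stromal-like site, they were Ntn1 (0.912), which encodes the guidance protein netrin 1, Fst (0.877) and Mapk10 (0.865). For Ccdc141 they were Bicc1 (0.874), Mark1 (0.832) and Ssbp2 (0.823). The sums share cells, depth and 2 libraries, and germ against somatic classes sets most of these values. Among the 5 genes, Tmem132c and Rspo2 were most alike (0.953), and Ccdc141 was least like the others (0.240 to 0.426).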

How the data were processed

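Testes of 1 control and 1 Brca1 vKO mouse were dissociated with collagenase and TrypLE and sequenced as 10x single-cell libraries. The deposited values are raw UMI counts per gene and barcode, which the authors made with Cell Ranger 6.0.2 against mm10, followed by R 4.2.3 and Seurat 4.3.0.1 (submitters' processing notes). No doublet removal is described, and none was applied apart from an alternative with Scrublet, which marked 3.68% and 3.01% of the kept cells, 10.9% and 13.3% of the undifferentiated cells and 14.2% of the control differentiating cells. The samples carried no cell annotation here, so classes were cut from marker UMIs per cell with no clustering. A somatic class needed under 1 Ddx4 and Dazl UMI per 10000, its own marker cut (5 to 20 per 10000, set on the distributions of these cells) and 2 times the next class. Counts were summed per class and scaled to 1000000 UMIs (CPM), with exact Poisson, Clopper-Pearson and conditional intervals (scipy 1.17.1). They cover counting error only, and for a count of 0 the floor was 3 UMIs. Counts of genes past a fold mark did not use this floor. A gene with 0 UMIs in either sum was counted there as past the mark. Detection shares used cells thinned to 10000 UMIs by random draws. Ratios needed 50 UMIs in both sums together, with 4-fold and 1.5-fold as marks of size and not as tests. TMM factors came from edgeR 4.0.16 and the code for ratios and intervals was checked on simulated counts. The 5 genes and all lists were chosen with earlier results of these data known. The genes named were these 5, the lists, the nearest coding neighbours and the 3 most alike genes for each. One family list was examined and is not reported here.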

Additional observations from a re-analysis of the deposited data

Results flagged for a closer look

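Barcodes that failed the filter on genes and mitochondrial UMIs, 735 in control and 744 in Brca1 vKO, entered no comparison but held all 5 genes above the limit of 3 UMIs (1.28 and 1.63 CPM). In control they stood at 63.7 CPM for Kcnc2, 89.8 for Glis3, 12.0 for Tmem132c, 39.3 for Ccdc141 and 12.4 for Rspo2. In Brca1 vKO they stood at 77.3, 111, 44.7, 18.0 and 4.36 for the same genes.

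Brca1 vKO over control went in opposite directions in different classes for Glis3 and Ccdc141, with counting intervals on either side of 1. The Glis3 ratio was 5.05 in germ cells under 10000 UMIs, from 32 and 45 UMIs, against 0.952 in undifferentiated and 0.583 in myoid-like cells. The Ccdc141 ratio was 3.66 in endothelial-like cells, 23 in control and 30 in Brca1 vKO, against 0.601 in undifferentiated, 0.511 in intermediate and 0.569 in Leydig-like cells. The differences between classes were not tested, since each class holds 1 library per genotype.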

How the results depend on the processing

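All 10 ratios of the 5 genes kept their direction under each alternative tried, 87 of 120 recomputed values within the counting interval of the reported value and 33 outside it. With at least 6 UMIs of one pair and 4 times the other, the control ratios of undifferentiated over differentiating cells were 59.7 for Kcnc2, 12.1 for Glis3, 13.0 for Tmem132c, 8.23 for Ccdc141 and 16.1 for Rspo2, and Brca1 vKO over control was 1.03 for Kcnc2, 0.901 for Glis3 and 2.10 for Tmem132c. With at least 1 UMI of one pair and none of the other, the former were 112, 13.9, 13.7, 7.72 and 19.2 in the same order, and the latter 1.11, 0.893 and 2.07. With a mitochondrial limit of 5%, which kept 102 of 330 control and 41 of 188 Brca1 vKO undifferentiated cells, the control ratios were 52.8 for Kcnc2, 13.3 for Glis3, 14.6 for Tmem132c and 7.11 for Ccdc141, and Brca1 vKO over control was 1.10, 0.922, 2.21, 0.661 and 0.784 for Kcnc2, Glis3, Tmem132c, Ccdc141 and Rspo2. With 10 CPM added, the control ratios were 23.0, 7.69, 6.29, 4.89 and 7.01. The Glis3 control ratio was 7.47 without the cells marked by Scrublet and 7.57 without cells past a somatic marker cut, an alternative chosen after seeing the data. Brca1 vKO over control for Kcnc2 was 1.13 with each cell weighted equally. Rspo2 passed the 1.5-fold mark in Brca1 vKO over control with at least 6 UMIs of one pair (0.645). The cause of these shifts was not tested.

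No paired analysis was possible because each genotype had 1 library. The main limits are 1 mouse per genotype and 9 differentiating cells in Brca1 vKO, where 7 or 8 UMIs stand behind 3 of the 5 levels.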
